A study of Mus musculus with 7 samples.

Results

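The clustered protocadherins are cell-surface adhesion molecules of the cadherin family, encoded by 3 neighbouring gene clusters named alpha, beta and gamma. This family was chosen with earlier results of these data known, and its genes were taken from the deposited gene table by symbol. Of 35727 genes, 58 matched: 14 of the alpha cluster (Pcdha and Pcdhac), 22 of the beta cluster (Pcdhb) and 22 of the gamma cluster (Pcdhga, Pcdhgb and Pcdhgc). The 58 genes carried 57 symbols, because 2 Ensembl genes (ENSMUSG00000007440 and ENSMUSG00000102206) are both named Pcdha11. On mouse chromosome 18 (mm10, 1-based), the alpha genes span 36930184 to 37187661, the beta genes 37264938 to 37524479 and the gamma genes 37661793 to 37841873.

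The proteins bind copies of themselves on a neighbouring cell, and a neuron that displays its own combination of isoforms can tell its own branches from those of other neurons. Each alpha and gamma gene has a variable first exon with its own promoter, joined to constant exons that the whole cluster shares, whereas the beta genes encode their protein in 1 exon. Promoters are chosen by loops that need the zinc-finger protein CTCF and the cohesin ring, and DNA methylation and the chromatin protein SMCHD1 hold the unchosen promoters silent. The C-type members at the 3′ end of the alpha and gamma clusters are regulated apart from the others, and methylation of the clusters has been described in several kinds of tumour.

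The samples were polyA RNA-seq libraries of undifferentiated pleomorphic sarcoma cells, a soft-tissue tumour type with no clear line of differentiation. Both models were made from mesenchymal stem cells of female C57/Bl6 mice lacking p53, given either Ccne1 (cyclin E1) by retrovirus or Vgll3 (vestigial-like family member 3). Each was passaged 2 times under the skin of female wild-type C57/Bl6 recipients to give 1 tumour cell line per model, regrown briefly in culture and transplanted into mice whose genotype and age the labels do not give. RFP-positive tumour cells were then sorted, giving 4 libraries labelled p53KO_Ccne1OE and 3 labelled p53KO_Vgll3OE. With 1 line per model, the added gene and the line cannot be told apart. The labels do not say that libraries of a model came from separate tumours, so p-values rest on the spread among these libraries, and that spread may be technical.

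Library totals ran from 21725890 to 53610300 estimated counts. Vgll3 stood at 50.7 ± 8.57 CPM (counts scaled to library size; mean ± SD, n = 4) in the Ccne1-labelled and 252 ± 34.6 CPM (n = 3) in the Vgll3-labelled libraries, while Ccne1 stood at 12.7 ± 5.61 and 14.9 ± 2.16 CPM, with overlapping ranges (exact two-sided permutation p = 0.514), so Ccne1 did not mark the libraries labelled for it. Vgll3 replicate 3 stood apart from the others of its model, with a lowest correlation of log2 CPM of 0.959. It had the highest endothelial marker sum (218 CPM, of which Pecam1 gave 184 CPM, against 28.9 and 54.7 CPM). Mesenchymal markers summed to 22243 to 27496 CPM in the Ccne1-labelled and 34092 to 41011 CPM in the Vgll3-labelled libraries. Of the 8 markers, however, 3 were called higher and 3 lower, where 51.9% of all genes tested were called. Col1a1 and Col1a2 rose, while Vim fell from 13973 ± 1413 to 4375 ± 238 CPM. Of 9 neuron markers, 7 were under 1 CPM in every library (Rbfox3, Snap25 and Syt1 among them). Of the other two, Tubb3 was called lower (28.8 ± 2.96 and 21.0 ± 1.64 CPM), and Map2 was called higher, from 0, 1, 1 and 0 counts to 147, 188 and 47.

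The 3 clusters differed in level and in what changed between the models. The alpha genes were close to undetected in every library, the beta cluster as a whole was lower in the Vgll3-labelled libraries, and the gamma cluster gave the most counts, with sums that overlapped between the models. Of the 58 genes, 42 had enough counts to be tested: none of the 14 alpha genes, 21 of the 22 beta genes (all but Pcdhb1) and 21 of the 22 gamma genes (all but Pcdhga8). By edgeR's quasi-likelihood test at an adjusted p under 0.05, 18 of these 42 were called, 13 lower and 5 higher in the Vgll3-labelled libraries. Over all 13740 genes tested, 51.9% were called, 25.1% higher and 26.8% lower. The called share of the beta genes (71.4%) was above that background and that of the gamma genes (14.3%) below it, as a description of genes that passed the filter on low counts. Calls also depend on depth. Most tested gamma genes were low (such as Pcdhga9, mean 0.299 CPM, SE 0.64), and most called beta genes were higher (such as Pcdhb20, mean 14.6 CPM, SE 0.11). These shares are therefore not at like depth. The gamma genes with the highest mean CPM were not called either: Pcdhgc3 (574 CPM, SE 0.08), Pcdhgc4 (59.1 CPM, SE 0.13) and Pcdhga6 (53.5 CPM, SE 0.12). The median log2 fold change (Vgll3-labelled over Ccne1-labelled, on fitted CPM) was -0.81 over the tested beta genes and 0.21 over the tested gamma genes, beside 0.0060 over all genes tested.

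The beta genes summed to 216, 214, 228 and 239 CPM in the Ccne1-labelled libraries and to 123, 101 and 124 CPM in the Vgll3-labelled ones. The groups did not overlap, and the mean sum was 1.94-fold lower in the Vgll3-labelled libraries (224 ± 11.8 CPM, n = 4, against 116 ± 12.8 CPM, n = 3). The gamma genes summed to 722, 737, 765 and 765 CPM against 723, 709 and 626 CPM. Here the groups overlapped, since Vgll3 replicate 1 lay above Ccne1 replicate 1, and the means were 747 ± 21.5 and 686 ± 52.2 CPM. The sums do not depend on how reads in shared exons were divided among the genes of a cluster. In bulk RNA, fewer cells expressing a gene and less of its RNA per cell cannot be told apart.

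**Figure D1:**
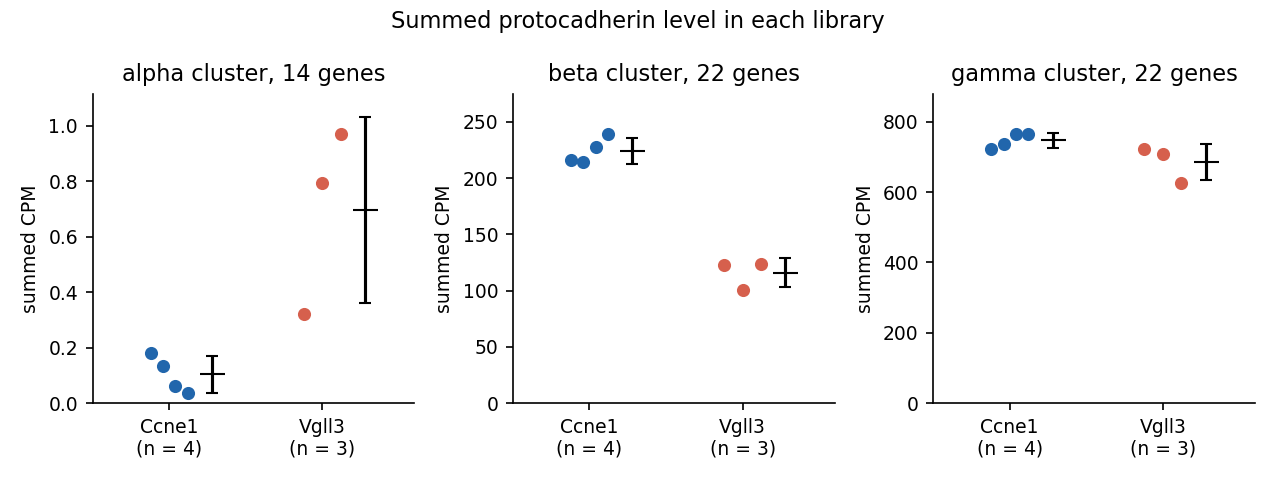
Summed CPM of all genes of the alpha, beta and gamma clusters (y axis, starting at 0, a different scale in each panel) in each Ccne1-labelled (blue) and Vgll3-labelled (red) library, with the mean and SD in black. The 4 Ccne1-labelled beta sums sit above the 3 Vgll3-labelled ones, the gamma sums overlap, and the alpha sums stay under 1 CPM.

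The alpha cluster gave few reads. Its 14 genes together had 4, 7, 2 and 1 counts in the Ccne1-labelled and 15, 21 and 29 counts in the Vgll3-labelled libraries, or 0.182, 0.135, 0.0619 and 0.0363 CPM against 0.322, 0.793 and 0.971 CPM. Every Vgll3-labelled sum was above every Ccne1-labelled one. Over each group the 14 counts and 65 counts gave a ratio of 6.03 (95% exact interval 3.35 to 11.6, which covers counting error only). These counts came from different genes in different libraries. Pcdha9 had 0, 6, 0 and 0 counts against 15, 14 and 0. Pcdha8 had 12 counts, all in Vgll3 replicate 3, and Pcdha3 had 2 counts in Ccne1 replicate 1 and 6 in Vgll3 replicate 3. Pcdha4 had 0, 0, 2 and 1 counts against 0, 0 and 4. No library had counts for more than 5 alpha genes, and the C-type genes Pcdhac1 and Pcdhac2 had 0 counts and 1 count in all. Pcdha1, Pcdha7, Pcdha12 and Pcdhac1 had no count in any library, where the limit that a count of 0 allows is 3 counts, or 0.0577 to 0.136 CPM depending on the library. No difference of a single alpha gene was detectable at this depth.

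Of the 21 tested beta genes, 12 were lower, 3 higher and 6 not called in the Vgll3-labelled libraries. The CPM ranges of the groups did not overlap for 16 of the 21 (12 higher in the Ccne1-labelled, 4 higher in the Vgll3-labelled libraries), where 55.7% of all genes tested had no overlap. Of these, 9 of the 12 lowered genes and 1 of the 3 raised genes changed at least 2-fold.

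The 4 beta genes with the highest mean CPM were among the lowered ones. Pcdhb5, the highest beta gene per kilobase of exon in both models (10.9 and 4.06 CPM per kb), stood at 34.9, 33.5, 40.2 and 45.7 CPM there and at 14.2, 11.3 and 17.5 CPM in the Vgll3-labelled libraries. All Vgll3-labelled values were below all Ccne1-labelled ones, and the gene fell by 1.43 on the log2 scale (SE 0.17, adjusted p = 0.000171 by edgeR). Pcdhb16 had 27.9, 31.7, 32.9 and 38.5 CPM against 18.8, 17.1 and 20.4 CPM, again without overlap, and its log2 fold change was -0.81 (SE 0.12, adjusted p = 0.000515 by edgeR). Pcdhb17 had 31.7, 29.4, 28.1 and 25.9 CPM against 21.0, 18.4 and 13.1 CPM. It changed by -0.72 (SE 0.15, adjusted p = 0.0043 by edgeR), with Vgll3 replicate 3 the lowest library. Pcdhb20 had 20.9, 18, 20.4 and 18.9 CPM against 8.87, 7.14 and 8.20 CPM, so that every Vgll3-labelled value was well under the lowest Ccne1-labelled one (log2 fold change -1.27, SE 0.11, adjusted p = 3.43e-05 by edgeR).

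The steepest falls were in Pcdhb9, Pcdhb15 and Pcdhb21. Pcdhb9 stood at 7.64, 8.85, 8.95 and 10.2 CPM in the Ccne1-labelled and at 2.34, 1.02 and 1.54 CPM in the Vgll3-labelled libraries. The mean was 5.46-fold lower, and the log2 fold change of -2.42 (SE 0.27, adjusted p = 0.000117 by edgeR) was the lowest of the 42 tested protocadherins. Pcdhb15 had 9.74, 11.5, 11.4 and 12 CPM against 3.41, 2.91 and 3.11 CPM. Its Vgll3-labelled libraries lay close together and 3.55-fold lower on average (log2 fold change -1.82, SE 0.14, adjusted p = 1.63e-05 by edgeR). Pcdhb21 had 18.3, 19.7, 20.9 and 20.5 CPM against 6.92, 4.91 and 6.73 CPM, 3.21-fold lower on average. The log2 fold changes of the other 5 lowered genes were -1.13 for Pcdhb4, -1.35 for Pcdhb6, -1.35 for Pcdhb19, -1.23 for Pcdhb22 and -0.53 for Pcdhb18. Pcdhb18 passed the threshold narrowly (edgeR adjusted p = 0.031) and lost its call without Ccne1 replicate 1, 2 or 4 or without Vgll3 replicate 2 or 3, with adjusted p-values up to 0.0847 over the 7 fits that each left out 1 library, and with no filter on low counts (0.0663).

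The 3 raised beta genes were Pcdhb13, Pcdhb7 and Pcdhb14. Pcdhb13 had 0.0910, 0.173, 0.217 and 0.327 CPM in the Ccne1-labelled libraries, from 2, 9, 7 and 9 counts, and 1.39, 0.605 and 1.81 CPM in the Vgll3-labelled libraries, from 65, 16 and 54 counts. The groups did not overlap, and the gene was 6.28-fold higher on average (log2 fold change 2.63, SE 0.54, adjusted p = 0.00316 by edgeR). Pcdhb7 had 1.09, 1.33, 1.33 and 1.27 CPM against 3.47, 2.46 and 1.51 CPM, with Vgll3 replicate 3 near the Ccne1-labelled values. Its log2 fold change of 0.98 (edgeR adjusted p = 0.0308) was not called without any 1 of the 4 Ccne1 replicates or without Vgll3 replicate 1 or 2, with adjusted p-values from 0.00310 to 0.158. Pcdhb14 had 8.42, 9.14, 10.1 and 10.8 CPM against 12.3, 10.8 and 15.7 CPM. The highest Ccne1-labelled and the lowest Vgll3-labelled library were nearly level, and its log2 fold change of 0.43 (edgeR adjusted p = 0.0361) lost its call without Ccne1 replicate 1, 2 or 3 or without Vgll3 replicate 1 or 3, with adjusted p-values from 0.0230 to 0.107. Without Ccne1 replicate 1, 2 or 3 or Vgll3 replicate 1, Pcdhb13 alone of the 3 was called, so the count of raised beta genes was then 1.

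**Figure D2:**
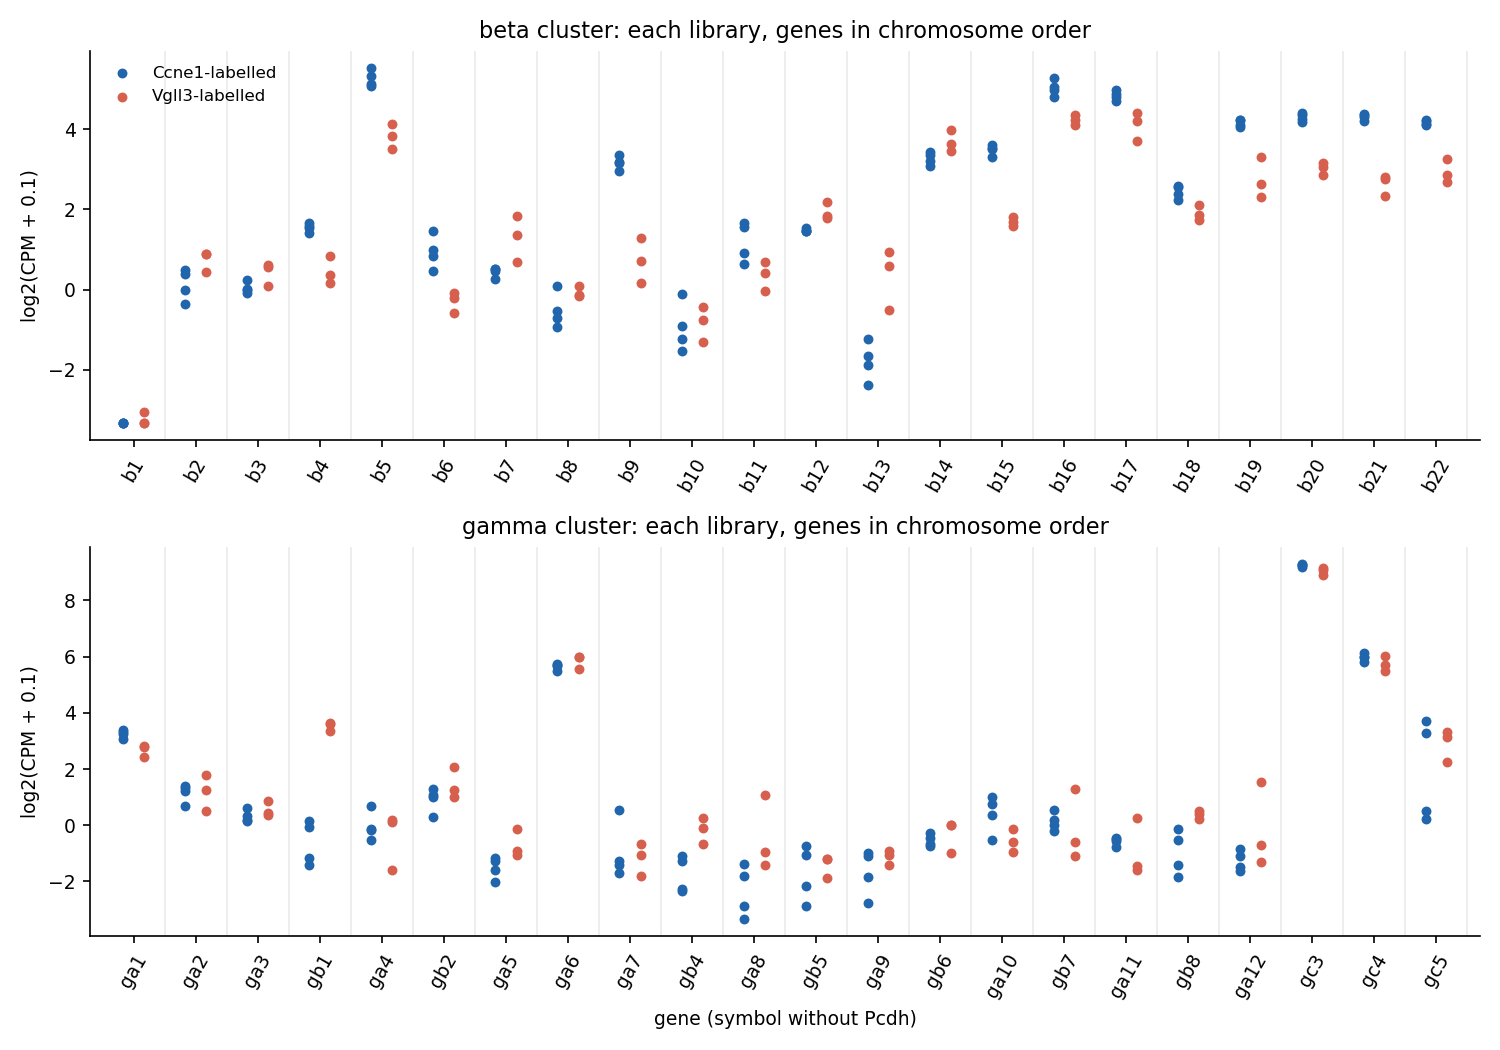
Level of each beta gene (top) and gamma gene (bottom) in each library, as log2 of CPM plus a pseudocount of 0.1 (y axis), with genes in chromosome order (x axis) and Ccne1-labelled libraries in blue, Vgll3-labelled in red. Pcdhgc3 has the highest CPM in all 7 libraries, and Pcdhgb1 shows the widest gap between the models.

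The remaining 6 tested beta genes were not called. Pcdhb2, Pcdhb3, Pcdhb8, Pcdhb10 and Pcdhb12 had log2 fold changes from 0.10 to 0.63, and Pcdhb11 had -0.91 (edgeR adjusted p = 0.0629, and 0.0409 without Ccne1 replicate 2). Pcdhb12 had 2.82, 2.66, 2.66 and 2.65 CPM against 4.48, 3.36 and 3.48 CPM. Its groups did not overlap, but its adjusted p was 0.0606 (0.0361 with limma-voom, and 0.0422 leaving out Vgll3 replicate 3). An antisense gene, Gm37446, covers 63.1% of the 31-base words of Pcdhb12 on the opposite strand, and was not analysed here. Whether counting used strand is not given, so reads of such a pair cannot be told apart. Pcdhb1 had 1 count in 1 library.

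Along the chromosome, the calls of the beta genes fell into stretches. The 8 genes at the 3′ end, Pcdhb15 to Pcdhb22, were all lower in the Vgll3-labelled libraries, as were the 3 neighbours Pcdhb4 to Pcdhb6 and the single gene Pcdhb9. The raised genes Pcdhb13 and Pcdhb14 lie side by side just before that stretch of 8, and Pcdhb7 lies between lowered and uncalled genes. Over the 21 tested beta genes, Spearman's rho was -0.30 between chromosome order and log2 fold change, and -0.59 between mean CPM and log2 fold change. Both are descriptions across genes of the same libraries, which are not independent.

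**Figure D3:**
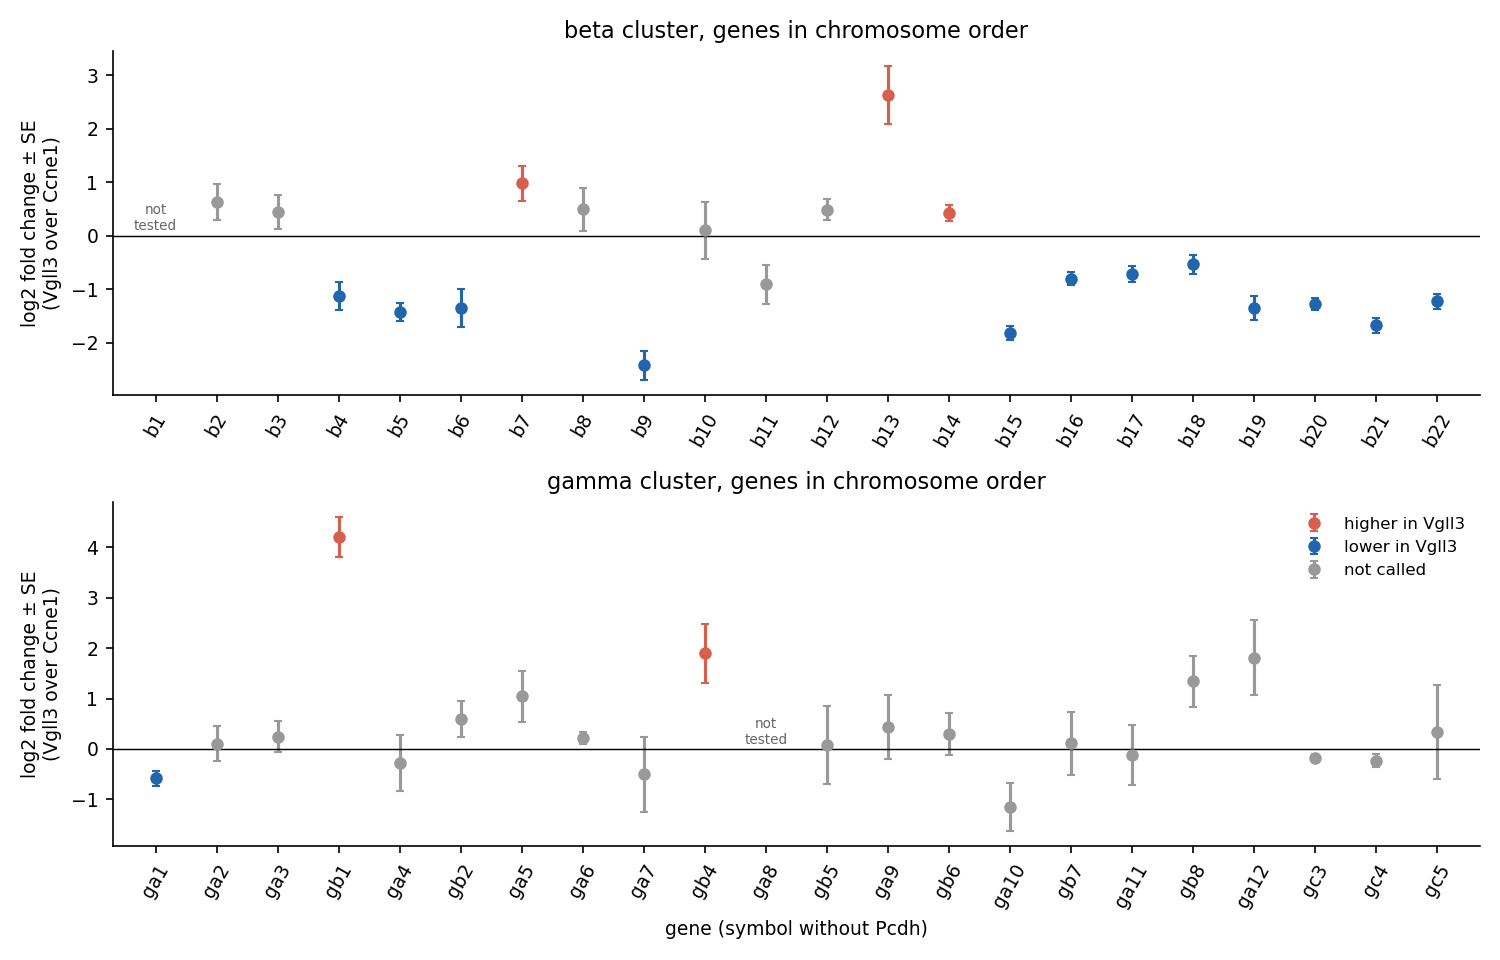
Log2 fold change of each tested gene (Vgll3-labelled over Ccne1-labelled, y axis, error bars ± SE) with genes in chromosome order (x axis), red where called higher, blue where called lower and grey where not called. The 8 beta genes from Pcdhb15 to Pcdhb22 all lie below 0, while most gamma genes are grey.

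Most counts of the gamma cluster came from its C-type members. Pcdhgc3, a C-type gene expressed in many tissues, had 578, 607, 613 and 624 CPM in the Ccne1-labelled and 565, 548 and 485 CPM in the Vgll3-labelled libraries. This gene made up 81.0% ± 1.09 of the cluster's counts in the first group and 77.6% ± 0.431 in the second, and per kilobase of exon it was the highest of the 42 tested genes in both (110 and 96.9 CPM per kb). All its Vgll3-labelled values were below all Ccne1-labelled ones, but the log2 fold change of -0.19 (SE 0.08) did not pass the test (edgeR adjusted p = 0.0766). An antisense gene not analysed here, BC037039, covers 27.8% of its 31-base words. Pcdhgc4, a C-type gene needed for the survival of neurons, had 69.6, 55.5, 63.8 and 63.7 CPM against 52.2, 64.5 and 44.5 CPM. The groups overlapped, and the difference was not called with all libraries (edgeR adjusted p = 0.159) but was without Vgll3 replicate 2 (0.0259). Pcdhgc5 had 9.74, 1.31, 12.9 and 1.05 CPM against 9.95, 4.69 and 8.80 CPM, a spread within the Ccne1-labelled libraries wider than the difference between the models (log2 fold change 0.34, SE 0.93). Ccne1 replicates 1 and 3, where Pcdhgc5 was high, also had the higher endothelial marker sums of their model (118 and 75.2 CPM against 42.0 and 46.7 CPM). In the Vgll3-labelled libraries the order differed: replicate 1, with the lowest endothelial sum (28.9 CPM), had the highest Pcdhgc5. The part of those cells in the Pcdhgc5 values was not tested.

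Among the variable gamma genes, Pcdhgb1 changed most. It had 0.273, 0.346, 0.867 and 1.02 CPM in the Ccne1-labelled libraries, from 6, 18, 28 and 28 counts, and 12.4, 10.1 and 11.9 CPM in the Vgll3-labelled libraries, from 578, 266 and 356 counts. Each Vgll3-labelled library was far above each Ccne1-labelled one, and the mean was 18.3-fold higher (log2 fold change 4.20, SE 0.40, adjusted p = 6.76e-05 by edgeR). Per kilobase of exon, Pcdhgb1 moved from rank 34 of the 42 tested genes to rank 8 (0.108 and 1.98 CPM per kb). The genes on either side of it, Pcdhga3 and Pcdhga4, were not called, with 1.16 ± 0.190 against 1.38 ± 0.278 CPM and 0.919 ± 0.393 against 0.748 ± 0.446 CPM. Only 36.1% of the 31-base words of Pcdhgb1 and 32.5% of those of Pcdhga4 are found in no other gene, the lowest shares of the cluster. Their values therefore rest in part on how shared reads were divided. The 7 B-type genes, Pcdhgb1 included, summed to 5.03 ± 0.527 CPM (n = 4) and 18.4 ± 2.80 CPM (n = 3). Pcdhgb1 alone gave 0.626 and 11.5 CPM of these means, and of the other B-type genes only Pcdhgb4 was called. The 12 A-type genes summed to 67.2 ± 5.82 and 73.3 ± 5.76 CPM.

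The other called gamma genes changed less. Pcdhgb4 had 0.318, 0.0962, 0.372 and 0.109 CPM against 0.536, 0.831 and 1.10 CPM, all 3 Vgll3-labelled values above the 4 Ccne1-labelled ones. Its log2 fold change was 1.90 (SE 0.59, adjusted p = 0.0235 by edgeR), from 3 to 12 counts per library against 22 to 33, and it lost its call without Ccne1 replicate 2 or 4 or without Vgll3 replicate 2 or 3, with adjusted p-values up to 0.0622. Pcdhga1, the first gene of the cluster, had 8.37, 9.84, 10.5 and 9.30 CPM against 6.84, 5.25 and 6.96 CPM. It was lower in every Vgll3-labelled library (log2 fold change -0.58, SE 0.14, adjusted p = 0.00879 by edgeR).

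The remaining 18 tested gamma genes were not called. Pcdhga6, the highest variable gamma gene per kilobase of exon (10.6 and 12.2 CPM per kb), had 45.0, 51.9, 50.3 and 53.2 CPM against 63.8, 63.6 and 46.6 CPM. Vgll3 replicates 1 and 2 were above, and replicate 3 within, the Ccne1-labelled range, so the difference was not called (log2 fold change 0.21, edgeR adjusted p = 0.162) but was without Vgll3 replicate 3 (0.00561). The polymorphic pseudogene Pcdhgb8 had 0.465 ± 0.288 and 1.20 ± 0.129 CPM, with an adjusted p of 0.0522 with edgeR (0.0236 without Ccne1 replicate 2, 0.0493 with DESeq2-style size factors, 0.0431 with DESeq2 and 0.0252 with limma-voom). Pcdhga10, which Gm26672 (not analysed here) covers on the opposite strand over 54.9% of its 31-base words, had 1.31 ± 0.564 and 0.592 ± 0.196 CPM and an adjusted p of 0.0671 (0.0239 without Ccne1 replicate 1 and 0.0417 without Vgll3 replicate 3). Groups did not overlap for 6 of the 21 tested gamma genes, beside the 55.7% of all genes.

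Several low gamma genes were highest in Vgll3 replicate 3. Pcdhga12 had 0.227, 0.462, 0.372 and 0.254 CPM in the Ccne1-labelled libraries and 0.514, 0.302 and 2.78 CPM in the Vgll3-labelled ones. It was not called (log2 fold change 1.81, edgeR adjusted p = 0.0655), but was without Vgll3 replicate 1 (0.0406) or 2 (0.0278) and with DESeq2 (0.0437), and without replicate 3 its log2 fold change was 0.31. The untested Pcdhga8 had 0, 15, 6 and 1 counts against 13, 11 and 60. Pcdhgb7 had 1.36, 1.04, 0.898 and 0.763 CPM against 0.364, 0.567 and 2.38 CPM, and Pcdhga11 had 0.637, 0.481, 0.619 and 0.581 CPM against 0.236, 0.264 and 1.10 CPM. In each of these 4 genes replicate 3 was the highest of the 7 libraries, and for Pcdhgb7 and Pcdhga11 the other Vgll3-labelled libraries were below every Ccne1-labelled one. Without replicate 3, the log2 fold changes were -1.13 for Pcdhgb7 and -1.19 for Pcdhga11 (edgeR adjusted p = 0.0509 and 0.0543). That library also had the highest endothelial marker sum, with 184 CPM of it from Pecam1. Kdr too was highest there, but Cdh5, Tie1, Emcn and Cldn5 were highest in Ccne1 replicate 1. Vgll3 replicate 3 had 15 of the 22 gamma genes at 1 CPM or more, where the other 6 libraries had 9 to 12. None of the 6 endothelial markers was called between the models (Pecam1 41.7 ± 23.4 and 79.7 ± 90.8 CPM). The part of endothelial cells in these values was not tested.

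**Figure D4:**
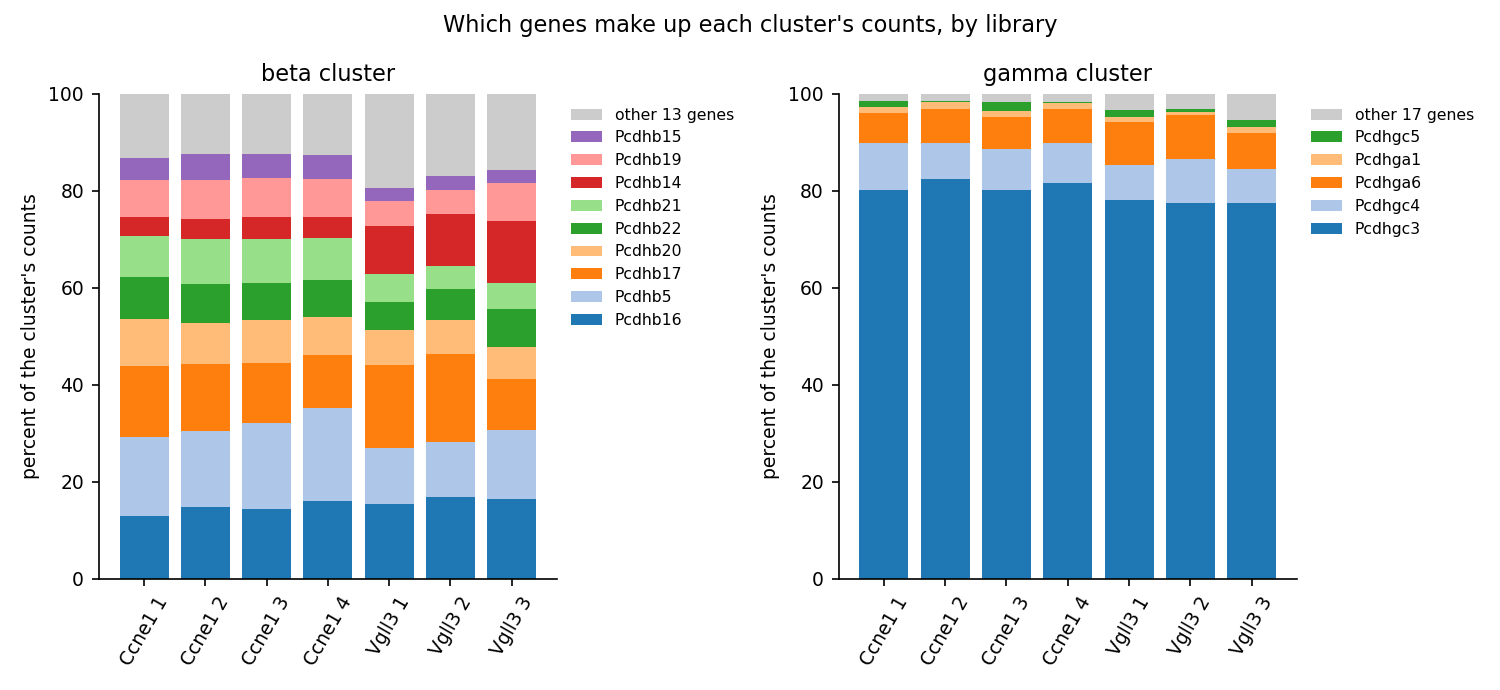
Share of each cluster's counts (y axis, percent, from 0 to 100) taken by its most abundant genes in each library, for the beta cluster (left) and the gamma cluster (right), with the remaining genes in grey. Pcdhgc3 takes most of the gamma counts in all 7 libraries, and the share of Pcdhb14 is wider in the Vgll3-labelled libraries.

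The make-up of the beta cluster shifted with its level. Pcdhb5 took 17.1% ± 1.54 of the beta counts in the Ccne1-labelled and 12.3% ± 1.63 in the Vgll3-labelled libraries. Pcdhb14, which was called higher, went from 4.28% ± 0.270 to 11.2% ± 1.38. Pcdhb16 took 14.6% ± 1.30 and 16.2% ± 0.840, although Pcdhb5 stayed ahead of it per kilobase in both models. In the gamma cluster Pcdhga6 took 6.70% ± 0.365 and 8.41% ± 0.848, and Pcdhgb1 took 0.0828% ± 0.0474 and 1.68% ± 0.244. Shares of a total move together, so a gene's share can rise when its level does not.

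How far a read can be given to 1 gene differs between the clusters. In the annotation the alpha genes share 2860 bases of constant exons and the gamma genes 2116 bases, whereas the beta genes share none as a cluster. Of the 31-base words of a beta gene's transcripts, 77.5% to 100% (median 88.2%) are found in no other gene of the table, against 32.5% to 72.7% (median 53.8%) for gamma and 9.32% to 54.5% (median 36.5%) for alpha. The values of single alpha and gamma genes therefore rest in part on how Salmon divided shared reads.

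Genes for the proteins that shape and silence the clusters changed to differing extents. Of 12 genes of loop architecture, 3 cohesin genes were called higher and none lower, beside 25.1% and 26.8% of all genes tested. Rad21 stood at 236 ± 11.1 and 300 ± 19.6 CPM, and Smc3 at 114 ± 4.44 and 138 ± 3.32 CPM. The third, Smc1a (edgeR adjusted p = 0.0412), lost its call without Ccne1 replicate 2, 3 or 4, and without Vgll3 replicate 1 or 2 (up to 0.121), with no filter on low counts (0.124) and with a looser filter (0.0871). Ctcf itself was not called (95.7 ± 3.68 and 107 ± 7.31 CPM, edgeR adjusted p = 0.073, and 0.0186 without Vgll3 replicate 3). Of 19 genes of DNA methylation and silencing, 11 were higher and 3 lower, where 51.9% of all genes were called. Of these 14, 12 kept their call whichever library was left out, and 8 were called under every alternative processing. The maintenance methyltransferase Dnmt1 went from 135 ± 3.63 to 180 ± 14.5 CPM (log2 fold change 0.41, SE 0.07, adjusted p = 0.0015 by edgeR). The de novo methyltransferase Dnmt3a went from 42.8 ± 2.36 to 82.7 ± 3.64 CPM, and Dnmt3b from 1.75 ± 0.255 to 3.64 ± 1.6 CPM (log2 fold changes 0.95 and 1.06). Dnmt3l was raised most on this list, from 0, 3, 1 and 1 counts to 26, 11 and 11 (log2 fold change 3.52). Tet1, an enzyme that oxidises methylated cytosine, went from 2.03 ± 0.443 to 6.84 ± 0.633 CPM, so genes that add and genes that remove the mark were both higher. Smchd1 was not called and stood at 94.6 ± 9.19 and 92.5 ± 3.36 CPM. The lowered genes of that list included Ehmt2, a histone methyltransferase (279 ± 11.2 and 213 ± 8.58 CPM).

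**Figure D5:**
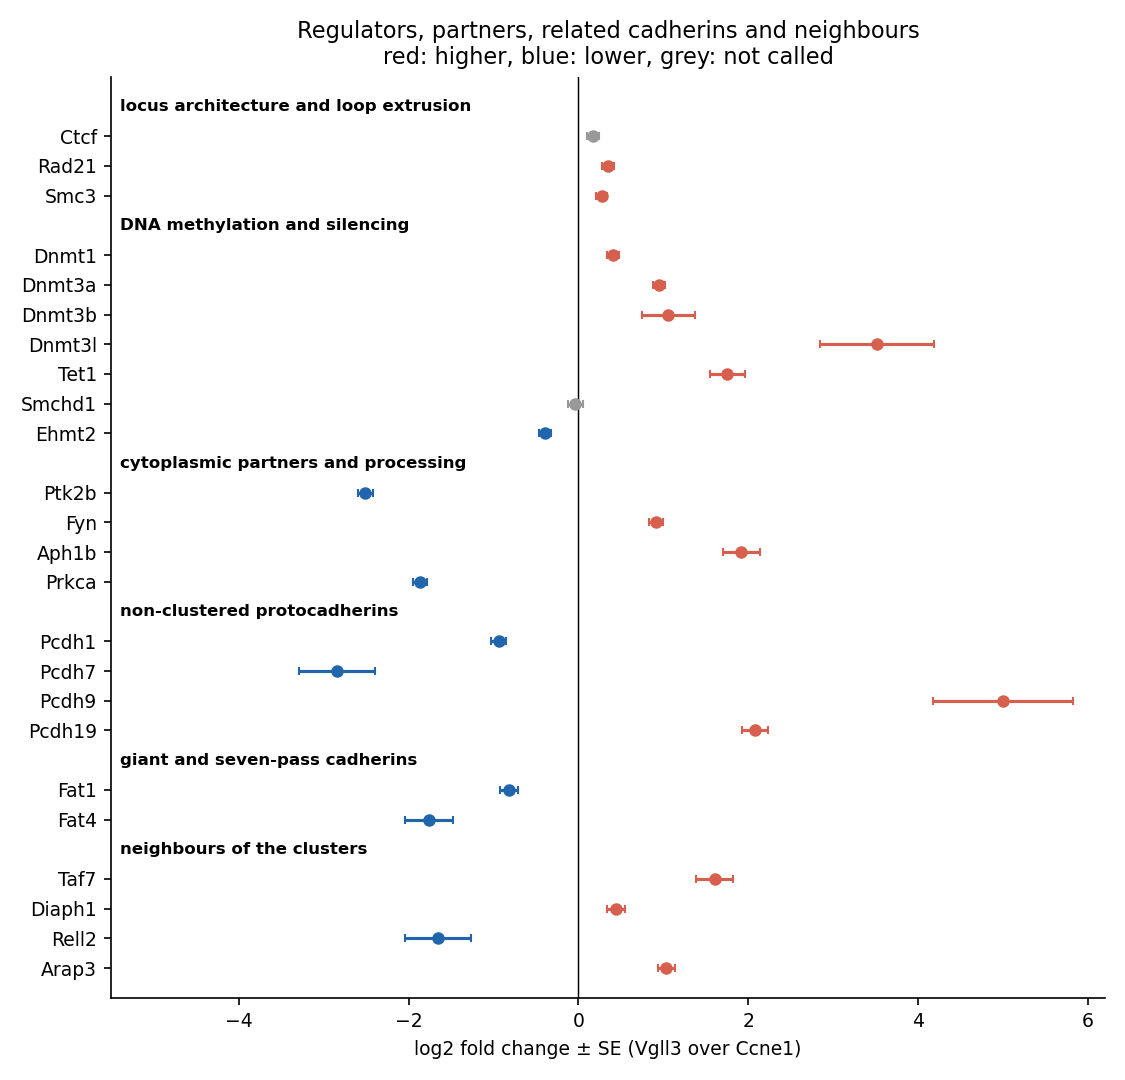
Log2 fold change (Vgll3-labelled over Ccne1-labelled, x axis, error bars ± SE) of the named regulators, partners, related cadherins and neighbouring genes with counts in both models, so without Fat2, red where called higher, blue where called lower and grey where not called. Ctcf and Smchd1 are the 2 grey points, and of the genes drawn Pcdh9 lies farthest right and Pcdh7 farthest left.

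Genes that act with the protocadherin proteins moved both ways. Of 24 tested partners and processing enzymes, 8 were higher and 11 lower (51.9% of all genes were called). Of these 19, 15 kept their call whichever library was left out, and 12 were called under every alternative processing. Ptk2b, the kinase PYK2 that binds the cytoplasmic tails, went from 178 ± 12 to 31.3 ± 2.39 CPM (log2 fold change -2.51), and Prkca, a protein kinase C, from 230 ± 7.34 to 63.3 ± 5.13 CPM. Fyn, a Src-family kinase, went from 29.0 ± 1.85 to 54.7 ± 4.21 CPM, and Aph1b, a subunit of the gamma-secretase that cuts the tails free, from 3.65 ± 0.514 to 13.8 ± 4.56 CPM.

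The protocadherins outside the clusters also moved both ways. Of 8 tested non-clustered genes, 4 were higher and 2 lower, beside the 51.9% called over all genes. Pcdh19 had 8.74, 10.4, 12 and 7.78 CPM against 40.6, 47.0 and 36.5 CPM, and Pcdh9 had 0, 5, 4 and 0 counts against 45, 46 and 112. Both were higher in every Vgll3-labelled library (log2 fold changes 2.08 and 5.0). Pcdh7 and Pcdh1 were lower, with log2 fold changes of -2.85 and -0.93. Of 4 tested giant and seven-pass cadherins, Fat1 and Fat4 were lower (199 ± 10.6 and 113 ± 17.7 CPM, and 47.1 ± 13.3 and 13.9 ± 4.05 CPM). Fat2 had 0 counts in all 4 Ccne1-labelled libraries and 28, 23 and 36 counts in the Vgll3-labelled ones, at least 9.0-fold higher against a floor of 3 counts per library.

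Of the 13 tested neighbours of the clusters, 6 were higher and 2 lower, with a median log2 fold change of 0.25, beside the 51.9% called over all genes. Of the 6, Hars lost its call without Vgll3 replicate 2 (edgeR adjusted p = 0.0536), and Hars2 without Ccne1 replicate 1, 2 or 3, and without Vgll3 replicate 1 or 2 (up to 0.147) and with other filters or DESeq2. Taf7, an intronless gene for a subunit of the basal transcription factor TFIID, lies between the beta and gamma clusters and was higher in the Vgll3-labelled libraries (1.77, 2.43, 2.94 and 2.36 CPM against 6.69, 8.88 and 6.26 CPM, log2 fold change 1.61, SE 0.22, adjusted p = 0.000325 by edgeR). Slc25a2, beside it, was too low to test, with at most 6 counts in a library. Diaph1, the formin gene after the gamma cluster, went from 96.5 ± 4.12 to 131 ± 22.2 CPM (log2 fold change 0.44). Arap3 was higher too (18.3 ± 2.05 and 37.7 ± 1.88 CPM, log2 fold change 1.04). The 2 lower genes were Rell2 (0.959 ± 0.128 and 0.301 ± 0.0649 CPM, log2 fold change -1.65) and Pcdh1 (log2 fold change -0.93).

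The macrophage, red cell and muscle marker sums did not overlap between the models, mostly through Cd14, Hba-a1 and Cdh15. The Schwann or glia and T cell sums overlapped. Macrophage markers summed to 59.6 to 80.1 CPM in the Ccne1-labelled and 12.5 to 24.1 CPM in the Vgll3-labelled libraries. The difference came mostly through Cd14 (59.4 ± 7.89 and 6.39 ± 1.85 CPM), while Adgre1 was under 1 CPM in every library. Of the 8 macrophage markers, 7 were tested and only Cd14 was called, beside the 51.9% called over all genes. Csf1r, Cd68, Ptprc, C1qa, C1qb and Lyz2 were not called, and their groups overlapped. Red cell markers summed to 5.02 to 10.03 CPM against 0.189 to 1.93 CPM. Of these 3 markers, 2 were tested and only Hba-a1 was called (6.58 ± 2.64 and 0.755 ± 0.491 CPM). Muscle markers summed to 0.728 to 1.00 CPM against 60.5 to 218 CPM, the latter nearly all from the cadherin gene Cdh15. Myod1 and Myog had 0 counts in every library. Only Cdh15 and Des of the 6 were tested, and both were called. Des lost its call without Ccne1 replicate 1, 3 or 4, and without Vgll3 replicate 1 or 2. Schwann or glia markers summed to 1.67 to 2.59 CPM against 2.40 to 5.44 CPM (Mbp 1.02 ± 0.157 and 1.12 ± 0.536 CPM). Of the 3 tested, Erbb3 alone was called, and not without Ccne1 replicate 3 or 4 or Vgll3 replicate 2. T cell markers summed to 1.5 to 2.19 CPM against 0.879 to 1.67 CPM. Only Trac of these was tested, and it was not called (1.66 ± 0.258 and 0.861 ± 0.357 CPM). The part of these cells in the protocadherin values was not tested.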

How the data were processed

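The members and gene lists were chosen with earlier results of these data known. The authors deposited 1 table of estimated counts per Ensembl gene, made with Salmon on mm10, per the submitters' processing notes; the version, annotation, use of strand and tool that summed transcripts are not given in any source used here. All deposited counts were whole, and 0 values needed rounding. Groups came from the sample titles. Of 35727 genes, 35422 had a symbol, matched by Ensembl ID, and 23095 a count. Coordinates, exon lengths and 31-base words came from GENCODE M21 (GRCm38, the same build as mm10).

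The test was that of edgeR 4.0.16 under R 4.3.3, with filterByExpr defaults, TMM scaling, robust quasi-likelihood F test, Benjamini-Hochberg over all 13740 genes tested, threshold 0.05. SE is the absolute log2 fold change over the square root of F, and CPM uses TMM library sizes. The method was also run on simulated counts in which a small part of the genes was changed. With 51.9% of genes called here, that run does not cover scaling or error rates at such a share. Ccne1 and Vgll3 were also compared by exact permutation over all 35 ways to divide 7 libraries into 4 and 3 (smallest p 0.0286). Alternatives were DESeq2 1.42.0, limma-voom 3.58.1, other size factors and filters, a replicate block and leaving out each library.

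Values in each library are given for the 4 most abundant genes of each cluster and its called genes with the largest changes, at most 4 in each direction. Each regulator or neighbour list gives up to 2 raised and 2 lowered called genes, and each marker list its most abundant gene; Vgll3, Ccne1, Ctcf, Rad21, Smchd1, Dnmt1, Dnmt3a, Dnmt3b, Slc25a2, Taf7 and Diaph1 were always included. A gene that this rule takes is not reported here. Other genes named, such as Pcdhga12, Pcdhgb7, Pcdhgc5 and Pcdhb12, were chosen after their values were seen. The precision set by depth covers counting error only.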

Additional observations from a re-analysis of the deposited data

Results flagged for a closer look

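The 4 Ccne1-labelled libraries were examined for 45 values, those of the 42 tested protocadherins and the sums of the 3 clusters. In 2 of them 1 library was far from the other 3, and chance gives that in about 1 in 20 such groups. Pcdhb12 stood at 2.82 CPM in Ccne1 replicate 1, and the other Ccne1-labelled libraries lay at 2.65 to 2.66 CPM. That gap is 0.936 of the range of the 4 libraries but small beside the level of the gene. Pcdhga7 stood at 1.34 CPM in Ccne1 replicate 4, from 37 counts, and at 0.212 to 0.318 CPM in the others, from 7 to 11 counts, a gap of 0.906 of the range.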

How the results depend on the processing

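The count of lowered beta genes was 10 to 12 under every alternative, and the sums of the 3 clusters moved by less than the spread between libraries. Of the 18 called genes, 12 were called under every alternative that tested them. Pcdhb7, Pcdhb14, Pcdhb18 and Pcdhgb4 lost the call without at least 1 library. When 1 library at a time was left out, raised beta genes numbered 1 to 3, raised gamma genes 1 to 4 and lowered gamma genes 1 to 2. DESeq2 called 5 raised gamma genes instead of 2.

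The models share replicate numbers, but same-numbered libraries did not deviate together (correlations -0.15, -0.17 and -0.10, and 0 of 3 matched their own number best). These 3 correlations showed no pairing by number but are too few to exclude it. With the replicate number as a block, 1 beta gene was raised, 10 lowered, 1 gamma gene raised and 0 lowered. That fit estimates more terms from the same 7 libraries, which lowers its power, so a lost call does not by itself show pairing. Pcdhb6 (adjusted p = 0.0725), Pcdhb7 (0.159), Pcdhb14 (0.0566), Pcdhb18 (0.101), Pcdhga1 (0.0537) and Pcdhgb4 (0.101) lost the call, all by edgeR. So did Smc3 (0.0615), Dnmt3b (0.0876) and Rell2 (0.0637). Over all genes, 2287 were then higher and 2554 lower, beside 3454 and 3679 without the block. Under the block the uncalled log2 fold changes of Pcdhga7 (0.37), Pcdhgb5 (-0.16), Pcdhgb7 (-0.45) and Smchd1 (0.035) changed sign. Only the Ccne1-labelled libraries have a replicate 4, so under the block that library has no partner and does not enter the difference between the models. How far this accounts for the changes of sign was not tested.

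Pcdhgb7 also changed sign with limma-voom (-0.44). Without 1 library, uncalled log2 fold changes that changed sign ran from -0.12 to 0.51 for Pcdhb10, -0.23 to 0.38 for Pcdhga2, -0.61 to 0.14 for Pcdhga4, -0.26 to 0.49 for Pcdhgb5, -1.13 to 0.54 for Pcdhgb7, -1.19 to 0.25 for Pcdhga11, -0.015 to 0.99 for Pcdhgc5 and -0.071 to 0.033 for Smchd1. Depth limits the alpha cluster most: its genes were too low to test singly. With no filter on low counts or with DESeq2, 10 alpha genes entered the fit and 0 were called. At such low counts that does not show an absence of change.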
